A study of Capra hircus with 11 samples.

Results

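Omental fat, the depot in the fold of membrane that hangs from the stomach, was taken from lactating Alpine goats near the peak of milk production, and its small RNA was sequenced with 1 library per animal. The feed-deprived group was 6 goats without feed for the last 48 h before slaughter. The control group was 5 goats that kept eating the same hay and concentrate ration freely. All 11 goats were 48 ± 2 days after kidding at the start of the experiment and had spent 2 weeks on that ration, which held 35 parts forage to 65 parts concentrate. The labels give no batch or pairing, and each library is whole tissue, so fewer cells of a type and less RNA per cell cannot be told apart in any value below.

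The miRNAs described here were chosen by name: miR-33, miR-103, miR-107 and miR-378, with any letter or arm. The names were picked for miRNAs inside genes of lipid and energy metabolism, a location found below for 5 of the 8 members. The rule found 8 of the 637 miRNAs in the deposited lists, namely bta-miR-33a, bta-miR-33b, bta-miR-103, bta-miR-107, bta-miR-378, bta-miR-378b, bta-miR-378c and bta-miR-378d. All 8 were listed in every library, and all 8 passed the filter on low reads that left 360 tested miRNAs. The prefix bta, for cattle, is left out below. Reads of a goat miRNA with another sequence than its bovine counterpart may be missed.

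A miRNA is a short RNA that guides the silencing machinery to matching messenger RNAs and lowers their output. When it lies in an intron of a protein-coding gene it can be made from the same transcript, so its level can follow the host gene as well as its own processing and decay. miR-33a and miR-33b come from introns of SREBF2 and SREBF1, which encode the transcription factors of cholesterol synthesis and of fatty acid synthesis. In human cells they repress the cholesterol exporter ABCA1 and genes of fatty acid oxidation. miR-103 and miR-107 sit in genes of pantothenate kinase, the enzyme that starts the making of coenzyme A, and in mice they lower insulin sensitivity of fat and liver. miR-378 lies in PPARGC1B, which encodes a coactivator of mitochondrial genes, and acts on oxidative metabolism and on fat tissue in mice.

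The goat gene table of RefSeq, assembly ARS1.2, held a miRNA gene for 5 of the 8 members, and each of the 5 lay within the span of a gene of lipid or energy metabolism. MIR33A fell within SREBF2, MIR33B within SREBF1, MIR103 within PANK2, MIR107 within PANK1 and MIR378 within PPARGC1B. miR-378b, miR-378c and miR-378d had no entry of their own, and PPARGC1B is not given here as their host. The members of a family differ by few bases, so the counting may have split or shared reads among them, and levels of near-identical members are uncertain to that extent.

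The recovered depth was 18281521 to 25389788 miRNA reads in feed-deprived libraries and 16974441 to 22642536 in controls. Levels are given as normalised reads, the deposited signal, which is a read count divided by 1 factor per library. Adapter ligation favours some sequences over others, so the level of one miRNA against another is a ratio of reads and not of molecules. The liver marker miR-122 ran from 3.91 to 84.6 normalised reads in feed-deprived goats (median 7.92) and from 1.08 to 146.7 in controls (median 2.55). The highest value of each group lay above the highest of miR-33a, 78.3.

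The 8 miRNAs together took 0.299% ± 0.0639 of the reads in feed-deprived goats (SD, n = 6) and 0.287% ± 0.0476 in controls (SD, n = 5). The miR-378 family gave the largest part, with 0.168% ± 0.0327 after feed deprivation and 0.172% ± 0.0288 in controls. miR-103 and miR-107 followed with 0.130% ± 0.0320 in feed-deprived goats and 0.114% ± 0.0224 in controls. The miR-33 pair held only 0.00125% ± 7.06e-04 in feed-deprived goats and 0.00108% ± 7.62e-04 in controls. In each family 1 member led. miR-378 made up 96.1% ± 0.293 of its family's reads in feed-deprived goats and 96.5% ± 0.164 in controls. miR-103 made up 82.7% ± 1.35 of the summed miR-103 and miR-107 reads in feed-deprived goats and 83.9% ± 1.57 in controls. miR-33b made up 78.1% ± 3.21 of the miR-33 reads in feed-deprived goats and 85.9% ± 4.42 in controls.

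By reads the order miR-378, miR-103, miR-107 and miR-378c held in all 11 libraries. Below them miR-33b had more reads than miR-378b in 3 of 6 feed-deprived and 3 of 5 control libraries, and miR-33a more than miR-378d in 3 of 6 feed-deprived and 2 of 5 control libraries, so these neighbours had no fixed order.

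None of the 8 levels passed the test between feed-deprived and control goats. limma called 0 of the 8 members at a Benjamini-Hochberg adjusted p under 0.05 over all 360 tested miRNAs, against 0.833% of all tested miRNAs called higher and 0% called lower. Not 1 of the 8 reached an unadjusted p under 0.05 in limma, a level that 11.7% of the 360 reached. On the recovered reads edgeR and DESeq2 each called 0 of the 8 as well, and each had 0 members under 0.05 unadjusted. Of the 360 tested miRNAs edgeR called 3 and DESeq2 called 9, and 42 and 41 were under 0.05 unadjusted. With shares this low, 0 of 8 does not set the members apart from the other miRNAs. The 2 groups of goats overlapped for all 8 members, while 1.67% of the 360 tested miRNAs had groups that did not overlap. The median log2 fold change of the 8 was 0.031, beside 0.00397 over all tested miRNAs. Fold changes are on the log2(normalised reads + 1) scale, which understates changes of miRNAs with few reads.

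**Figure D1:**
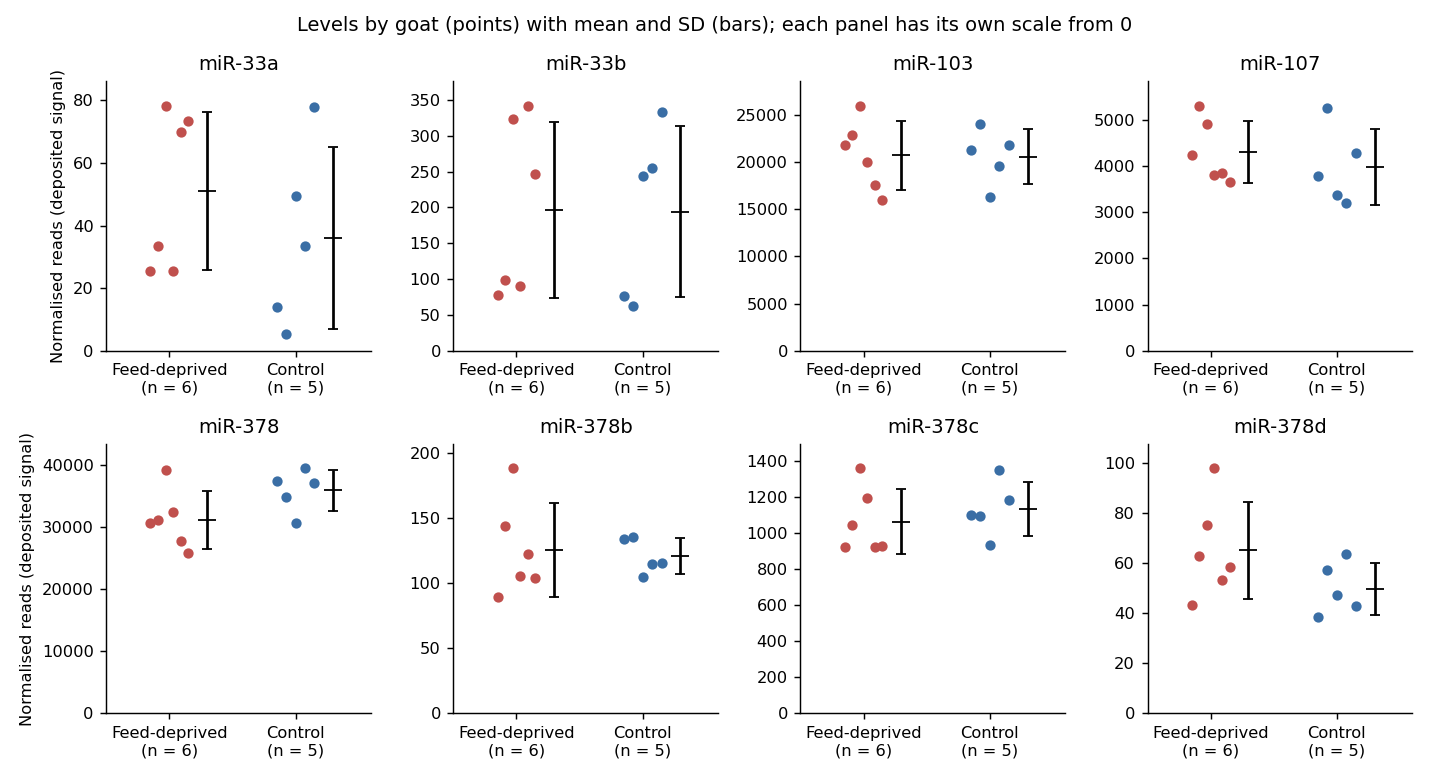
Normalised reads of each of the 8 miRNAs (y axis, from 0, a separate scale per panel) in feed-deprived goats (red) and control goats (blue). Points are single goats and bars are the mean with its SD. The groups overlap in every panel, and miR-33a and miR-33b spread more widely between goats than the other 6.

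**Figure D2:**
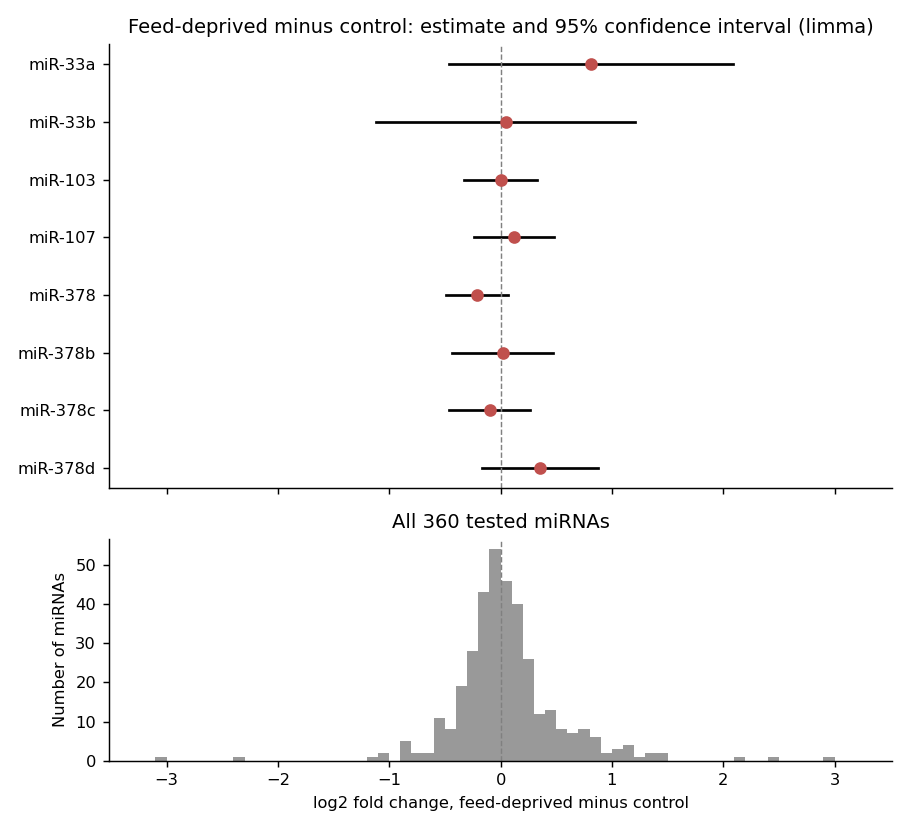
Top, the log2 fold change of each member, feed-deprived minus control, with its 95% confidence interval from limma; all 8 intervals include 0. Bottom, the number of miRNAs by log2 fold change for all 360 tested, whose median was 0.00397.

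miR-33a, the member inside the gene for the cholesterol factor SREBP-2, had the largest fold change of the 8 and rested on few reads. In feed-deprived goats it ran from 25.4 to 78.3 normalised reads with a median of 51.7. The 5 controls had 14.0, 5.32, 49.3, 33.4 and 77.9. Controls 1 and 2 were the lowest of all 11 libraries, with 11 and 4 reads, and an exact 95% Poisson interval of 1.09 to 10.2 around the 4. The highest control lay level with the highest feed-deprived goats, so the groups overlapped over most of their range. The log2 fold change was 0.81 ± 0.590 (SE), with a 95% interval of -0.46 to 2.08 and a limma adjusted p of 0.703. Without control replicate 2 it was 0.30, and without control replicate 5 it was 1.21.

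miR-33b, the member inside the gene for the fatty acid factor SREBP-1, had more reads than miR-33a in every library. Feed-deprived goats had 77.7 to 342.3 normalised reads with a median of 172, and controls had 76.6, 62.5, 244, 254 and 334. These values left a gap: 5 libraries lay at 62.5 to 98.4 and the other 6 at 244 to 342.3, with 2.48-fold between the nearest of them. Each side of the gap held both groups, with 3 feed-deprived goats and 2 controls below it and 3 feed-deprived goats and 3 controls above it. Depth was 16974441 to 25389788 reads below the gap, where the 3 shallowest libraries of the 11 lay at 16974441, 17206278 and 18281521, and 19281777 to 24897373 above it. The part of depth in the gap was not tested. The log2 fold change of miR-33b was 0.044 ± 0.538 (SE, limma adjusted p = 0.990), and its 95% interval of -1.12 to 1.20 leaves room for a change of up to 2.31-fold.

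The same goats tended to be low or high in both miR-33 miRNAs. In the 5 libraries below the gap miR-33a ran from 5.32 to 33.5 normalised reads, and in the 6 above it from 33.4 to 78.3. Because the libraries fall into separate clusters, a correlation was taken only within the 6 above the gap, where Pearson's r was 0.61 (exact permutation p = 0.279, adjusted over 5 pairs 0.349) and Spearman's rho 0.37 (exact permutation p = 0.497, adjusted 0.622). Without the 2 libraries farthest in miR-33a, r was 0.11. Within the upper cluster the relation did not pass, and no correlation was taken over the 5 libraries below the gap.

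The spread of the miR-33 pair between goats of a group was wide. The within-group SD on the log2 scale was 1.12 for miR-33a and 1.03 for miR-33b, beside a median of 0.43 over all tested miRNAs. Among the 62 miRNAs whose mean lay within 1 log2 unit of miR-33b, 2 were more variable, and among the 88 around miR-33a 8 were. The other 6 members varied less than the typical miRNA of their abundance. miR-378 had an SD of 0.18 against a median of 0.28 among its 25 neighbours in level, and 24 of these 25 were more variable. miR-103, with 0.24 against 0.29, and miR-107, with 0.25 against 0.31, lay nearer to the middle. These positions are descriptions and were not tested.

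**Figure D3:**
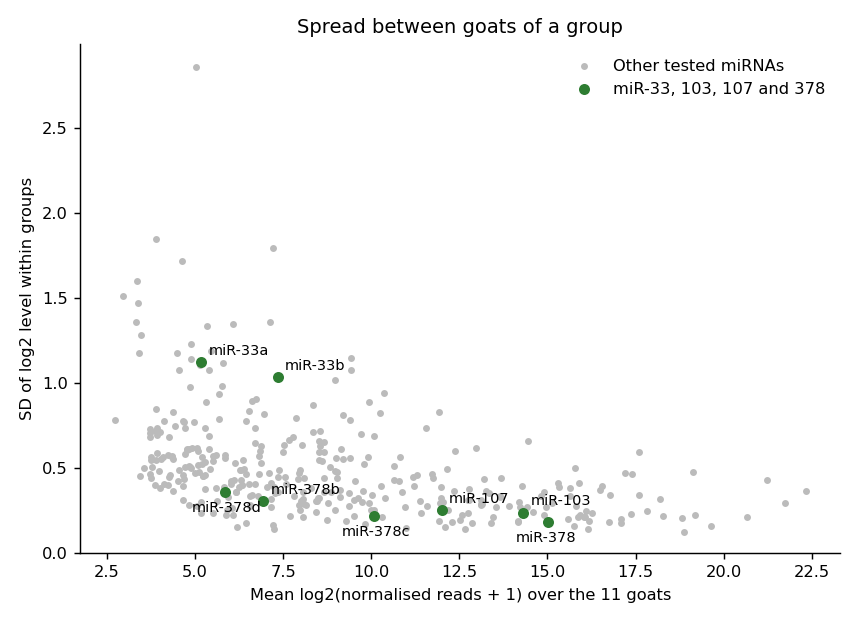
Within-group SD of the log2 level (y axis) against the mean log2 level over the 11 goats (x axis), with 1 point per tested miRNA. miR-33a and miR-33b (green) lie high at 1.12 and 1.03, and the miR-103, miR-107 and miR-378 members lie at 0.18 to 0.36.

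Although neither level passed, the balance between the miR-33 miRNAs differed between the groups. In feed-deprived goats there were 2.94 to 4.90 reads of miR-33b per read of miR-33a, with a median of 3.47. In controls 1 to 5 the ratio was 5.45, 11.8, 4.95, 7.61 and 4.28. Of the 6 feed-deprived goats 5 lay below all controls, and feed-deprived replicate 5 lay within the control range. The log2 ratio averaged 1.82 ± 0.286 after feed deprivation (SD, n = 6) and 2.59 ± 0.509 in controls (SD, n = 5), a difference of -0.77 ± 0.243 (SE), or a ratio 0.587 times that of controls. An exact two-sided permutation test over all 462 splits gave p = 0.00866, and 0.0433 after Benjamini-Hochberg adjustment over the 5 family ratios examined. A plain ratio of reads within a library does not depend on the scaling of that library. The log2 ratios tested here were of signal + 1, so they depend on it where reads are few. With no pseudocount the difference was -0.82 (adjusted exact permutation p = 0.0433).

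The counting intervals of single goats were wide where reads were few. miR-33b took 92.2% of the 51 miR-33 reads of control replicate 2, with an exact 95% binomial interval of 81.1 to 97.8%, and 74.6% of the 130 reads of feed-deprived replicate 2, with an interval of 66.2 to 81.8%. With more reads, control replicate 5 had 81.1% of 491 reads (77.3 to 84.4%) and feed-deprived replicate 5 had 83.1% of 419 reads (79.1 to 86.5%), so this pair of goats did not differ in the direction of the group means. Summed over goats, miR-33a had 331 reads after feed deprivation and 183 in controls, and miR-33b had 1258 after feed deprivation and 959 in controls. With each library left out in turn the difference stayed between -0.89 and -0.58, with exact permutation p-values of 0.00476 to 0.0159. After adjustment over the 5 ratios 4 of the 11 passed, those without feed-deprived replicates 1 or 5 or control replicates 3 or 5, and the highest adjusted p was 0.0794. Without controls 1 and 2, which had under 20 reads of miR-33a, the difference was -0.60 (exact permutation p = 0.0357, adjusted 0.179), where 84 splits allow no p below 0.0119.

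The summed leukocyte markers, 8 of 8 with a positive log2 fold change (183 of the 360 tested miRNAs had one) and 1 called higher (3 of the 360 were), ran from 66127 to 100654 normalised reads in feed-deprived goats and from 51761 to 77064 in controls. Other cell lists were one-sided too. Fold changes were positive for 3 of 3 red cell markers, 0 of 3 endothelial markers and 0 of 5 stroma and fibroblast markers. Epithelial markers had 3 positive and 1 negative, and limma called 0 in each of these lists. Macrophages are a cell type in which miR-33 is well studied, and the part of leukocytes or other cells in the miR-33 ratio was not tested.

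**Figure D4:**
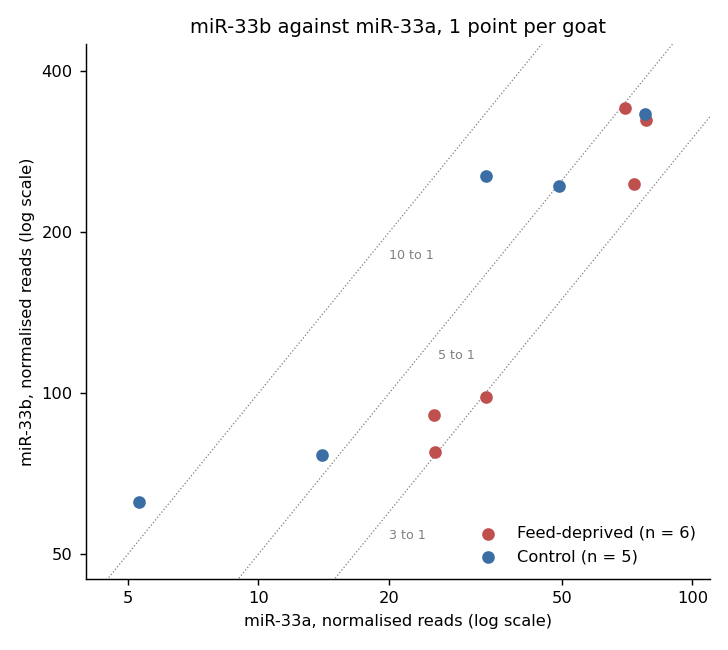
miR-33b against miR-33a in normalised reads, both on log axes, with 1 point per goat; dotted lines mark ratios of 3, 5 and 10 to 1. Feed-deprived goats (red) lie at ratios of 2.94 to 4.90 and controls (blue) at 4.28 to 11.8, and both groups have goats on each side of the gap in miR-33b.

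miR-103, encoded inside the pantothenate kinase genes, was among the steadiest in its mean. Feed-deprived goats ran from 15996 to 25989.5 normalised reads with a median of 20892. Controls had 21314, 24030.1, 16285, 19538 and 21762. The means were 20700.4 ± 3639 in feed-deprived goats (SD, n = 6) and 20586 ± 2888 in controls (SD, n = 5), and the groups covered almost the same range. The difference on the log2 scale was 0.0012 ± 0.152 (SE), at a limma adjusted p of 0.996, and the 95% interval ran from 0.798-fold to 1.25-fold. It ranked 47th to 55th by reads in feed-deprived libraries and 49th to 53rd in controls.

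miR-107, the close relative from PANK1, stood at 3648 to 5311 normalised reads after feed deprivation with a median of 4048, and at 3785, 5253, 3383, 3196 and 4278 in controls. The highest goat of each group was nearly level with that of the other. This gave a log2 fold change of 0.12 ± 0.166 (SE) at a limma adjusted p of 0.909, with a 95% interval from 0.849-fold to 1.39-fold. miR-107 and miR-103 moved together across the 11 goats, with Pearson's r of 0.78 (permutation p = 0.00474, adjusted 0.0118) and Spearman's rho of 0.84 (permutation p = 0.00224, adjusted 0.0056), from 100000 resamples. Without the 2 goats farthest in miR-103, feed-deprived replicate 6 and control replicate 3, r was 0.77, and with group means subtracted it was 0.81. An r of this size was not particular to the pair. Among 352 other miRNAs, with group means subtracted, miR-652 reached 0.87 with miR-103 and miR-211 reached 0.85 with miR-107. All these values share libraries and scale factors. The mature forms of this pair are nearly identical in known mammals, and how far the counting split or shared their reads was not tested.

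The number of miR-107 reads per miR-103 read was 0.189 to 0.232 in feed-deprived goats and 0.164 to 0.219 in controls. The log2 ratio differed by 0.12 ± 0.0919 (SE, exact permutation p = 0.221, adjusted 0.221), and 3 of the 6 feed-deprived goats lay above all controls. A difference in the balance of this pair was not detectable in these goats.

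miR-378, from PPARGC1B, was the most abundant of the 8 and ranked 40th to 46th by reads in every library. Feed-deprived goats had 25766 to 39151 normalised reads with a median of 30908. Controls had 37448, 34811, 30741, 39485.5 and 37076. The means were 31155 ± 4607 after feed deprivation and 35912 ± 3333 in controls, and feed-deprived replicate 3 lay nearly as high as the top control. Its log2 fold change of -0.21 ± 0.129 (SE) had the smallest p of the 8 but did not pass (limma adjusted p = 0.584). The 95% interval ran from 0.712-fold to 1.05-fold, and the value was negative without any 1 library (-0.28 to -0.16) and under each of the other settings tried (-0.39 to -0.050).

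The lettered relatives of miR-378 were far rarer. miR-378c, the next most abundant, had 924 to 1361 normalised reads after feed deprivation with a median of 988, and 1099.91, 1097, 938, 1349.6 and 1187 in controls (log2 fold change -0.098 ± 0.168, limma adjusted p = 0.936). miR-378b had 89.2 to 188 in feed-deprived goats with a median of 114, against 134, 136, 104, 114 and 116 in controls (log2 fold change 0.017 ± 0.211, limma adjusted p = 0.990). Only the feed-deprived group had goats beyond 136, and the lowest goat was also feed-deprived. miR-378d, with 30 to 100 reads per library, had 43.1 to 97.8 in feed-deprived goats with a median of 60.7, against 38.3, 57.2, 47.1, 63.6 and 42.7 in controls. The log2 fold change of miR-378d was 0.36 ± 0.243 (SE, limma adjusted p = 0.664), and feed-deprived replicate 4 held the highest value.

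Relative to miR-378, miR-378d was higher after feed deprivation. It made up 0.136% to 0.289% of the family's reads in feed-deprived goats. In the 5 controls it made up 0.0989%, 0.158%, 0.148%, 0.155% and 0.111%. These are small shares beside miR-378, and how far the counting split or shared reads between miR-378d and miR-378 was not tested. Of the 6 feed-deprived goats 5 lay above all controls, and feed-deprived replicate 1 lay within their range. The log2 ratio of miR-378d to miR-378 averaged -8.92 ± 0.355 in feed-deprived goats (SD, n = 6) and -9.48 ± 0.307 in controls (SD, n = 5). The difference was 0.57 ± 0.203 (SE), a ratio 1.48 times that of controls, with an exact permutation p of 0.0195 and 0.0487 after adjustment over the 5 ratios. The result lies close to the threshold: with each library left out the difference stayed at 0.46 to 0.67 and the exact permutation p at 0.00794 to 0.0381, but the adjusted p passed only without feed-deprived replicate 1 and otherwise reached 0.0952.

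Neither of the other relatives moved apart from miR-378 past the threshold. The log2 ratio of miR-378c to miR-378 differed by 0.11 ± 0.0578 (SE, exact permutation p = 0.0801, adjusted 0.133) and that of miR-378b by 0.23 ± 0.147 (SE, exact permutation p = 0.145, adjusted 0.181). Without feed-deprived replicate 1 the miR-378c ratio passed at 0.15 (adjusted exact permutation p = 0.0397). All 3 differences against miR-378 had the same sign, and all 3 share the same miR-378 values, so they are not separate observations of a direction.

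**Figure D5:**
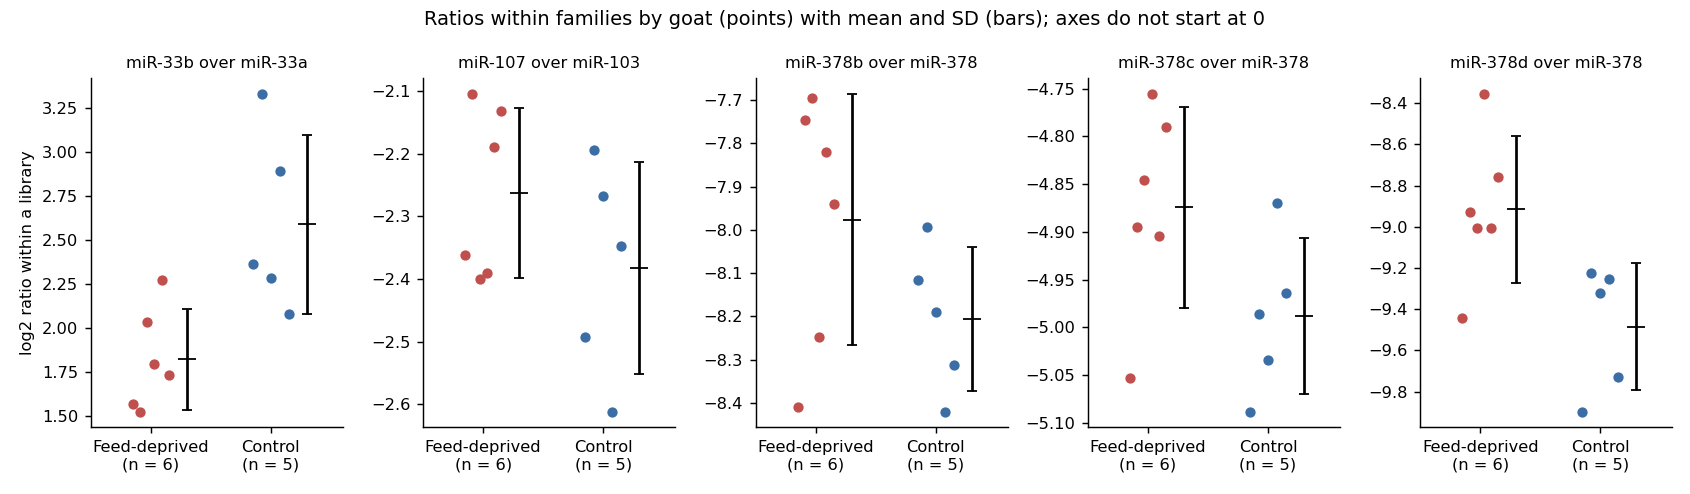
The log2 ratio of the 5 family pairs within each library (y axes, separate scales that do not start at 0), with points for goats and bars for the mean with its SD. The miR-33b to miR-33a ratio is lower in feed-deprived goats (red) than in controls (blue) by 0.77, and the miR-378d to miR-378 ratio is higher by 0.57.

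Across goats miR-378c followed miR-378 closely, with Pearson's r of 0.86 (permutation p = 8.7e-04, adjusted 0.00435) and Spearman's rho of 0.89 (permutation p = 3.9e-04, adjusted 0.00195), and r was 0.83 without feed-deprived replicate 6 and control replicate 4. For miR-378b r was 0.49 (permutation p = 0.125, adjusted 0.209) and rho 0.52 (permutation p = 0.108, adjusted 0.180), and r was 0.56 without the same 2 goats. For miR-378d r was 0.020 (permutation p = 0.952, adjusted 0.952) and rho 0.16 (permutation p = 0.630, adjusted 0.630), and r was -0.011 without them. With group means subtracted r was 0.90 for miR-378c, 0.61 for miR-378b and 0.38 for miR-378d, so the low value for miR-378d came in part from the group means. miR-378b and miR-378d, with 93 to 180 and 30 to 100 reads per library, carry more counting error than miR-378c, with 825 to 1522.

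Other tissues in the sample could bear on miR-378, which is abundant in muscle and studied in brown fat. The striated muscle markers, with 6 of the 7 listed and 4 tested, summed to 676 to 3425 normalised reads in feed-deprived goats and 848 to 4557 in controls, with 2 positive and 2 negative fold changes. The brown and beige fat markers, 4 of 4 tested, summed to 9657 to 14603 in feed-deprived goats and 14919 to 17464 in controls. Of these markers 1 had a positive and 3 a negative fold change, and limma called 0 (3 of the 360 tested miRNAs were called). The summed ranges did not overlap, but the groups overlapped for each of the 4 markers alone. Most of the sum was miR-193b, with means of 7664 in feed-deprived goats and 10789 in controls. Its log2 fold change was -0.51 (limma adjusted p = 0.258), and the other 3 had -0.16 to 0.0029. The part of muscle or brown fat in the level of miR-378 was not tested.

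The miRNAs most like the 4 members with a mean of at least 10 CPM, a read count scaled by the depth of its library, were sought among the 352 other tested miRNAs by Pearson's r over the 11 libraries with group means subtracted. These r values describe a search over many miRNAs that share libraries and scale factors. For miR-103 the 3 nearest were miR-652 (0.87), miR-2284y (0.86) and miR-2904 (0.84). For miR-107 they were miR-211 (0.85), miR-1839 (0.83) and miR-320a (0.81). miR-378 was nearest to miR-2285aa (0.79), miR-2904 (0.77) and miR-2284y (0.72). miR-378c was nearest to miR-148a (0.82), miR-2285aa (0.74) and miR-2355-3p (0.66). None of these passed between the groups, with limma adjusted p-values of 0.836 to 0.990.

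miR-103 and miR-107 belong to a wider group of miRNAs with a shared core in the seed, the stretch that pairs with targets, and its other members were looked at beside them. Of 8 relatives matched, 7 were tested, with 4 positive and 3 negative log2 fold changes, a median of 0.12 and 0 called by limma. Of all 360 tested miRNAs 183 had a positive fold change and limma called 3, so 0 of 7 does not set these relatives apart. miR-15b came nearest to a change, at 661 ± 257 normalised reads in feed-deprived goats and 427 ± 125 in controls (log2 fold change 0.59, limma adjusted p = 0.423). miR-424-5p had 315 ± 176 in feed-deprived goats and 447 ± 205 in controls (-0.66, limma adjusted p = 0.668). miR-15a had 4637 ± 412 in feed-deprived goats and 4132 ± 509 in controls (0.17, limma adjusted p = 0.747). miR-497 had 5147 ± 1652 in feed-deprived goats and 4327 ± 1289 in controls (0.23, limma adjusted p = 0.872). miR-16a and miR-16b had nearly equal values, -0.097 each, and may share reads.

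Of 22 other miRNAs known to act on cholesterol and lipid handling 20 were tested, with 10 positive and 10 negative fold changes, a median of -0.0086 and 0 called by limma. Over all 360 tested miRNAs limma called 3. At an unadjusted p under 0.05 there were 6 of the 20, where 11.7% of all 360 tested miRNAs reached that level. miR-223 had the smallest p of this list, with 1222 ± 1102 normalised reads in feed-deprived goats and 294 ± 264 in controls (log2 fold change 2.12, limma adjusted p = 0.074), and it is also a leukocyte marker. miR-21-5p, miR-130b and miR-370 followed with log2 fold changes of 0.80, 0.84 and 1.03 (limma adjusted p = 0.218, 0.289 and 0.394).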

How the data were processed

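The authors deposited, per library, a list of mature miRNAs with 1 normalised signal each. No source used here names the trimming, the aligner, the miRNA database, the build or the tool behind the factors. Every non-zero signal was a whole multiple of the smallest in its library (100% within 0.001 read), so whole reads were recovered. Library kits without molecular identifiers give reads that are not independent molecules, and intervals and floors cover counting error only. Replicates are separate goats, numbered in accession order, which pairs nothing.

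The 629 miRNAs listed in all libraries (8 others are absent from feed-deprived replicate 1) were filtered with edgeR's filterByExpr (minimum count 10), leaving 360. limma 3.58.1 in R 4.3.3 compared log2(signal + 1), with variance trend and robust moderation, two-sided. edgeR 4.0.16 and DESeq2 1.42.0 on recovered reads, 3 scalings, 2 pseudocounts, 2 filters, no trend and each library left out were alternatives. The 5 family ratios were compared by exact permutation tests.

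On simulated reads from these library sizes, limma recovered 70.3% of 2-fold changes (64 miRNAs) and 100% of 4-fold changes among 361 tested, with 4 false calls. These shares are over all changed miRNAs and cannot be carried over to the miR-33 pair. Its within-group SDs of 1.12 and 1.03 stand beside a median of 0.43. Members and lists were chosen with earlier results of these data known. All members are named, with the 4 smallest p per list and, per member over 10 CPM, the 3 most alike miRNAs. Mature sequences were not used here.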

Additional observations from a re-analysis of the deposited data

How the results depend on the processing

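No member passed limma, edgeR or DESeq2 under any setting tried, and miR-33a, miR-378 and miR-378d kept their direction in every setting that tested them. With upper-quartile factors, which moved the median log2 fold change of all tested miRNAs to -0.17, miR-33b (-0.13), miR-103 (-0.18), miR-107 (-0.059) and miR-378b (-0.16) turned negative. With library totals, which moved it to 0.16, miR-378c was 0.065. Relative to these shifted medians, each of the 5 lay on the same side as with the deposited factors. miR-33b was -0.0017 and miR-103 -0.0086 in edgeR, and miR-103 -0.0034 in DESeq2. Leaving out 1 library gave ranges of -0.29 to 0.31 for miR-33b, -0.080 to 0.072 for miR-103, 0.047 to 0.23 for miR-107, -0.11 to 0.11 for miR-378b, -0.17 to -0.033 for miR-378c and 0.23 to 0.46 for miR-378d.

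Of all tested miRNAs 3 were called higher and 0 lower. The count of higher was 0 at a mean of 10 CPM or more, 7 with library totals, 9 in DESeq2 and 1 to 4 without 1 library. The count of lower was 1 with upper-quartile factors or library totals and 0 to 1 without 1 library. The miR-33 ratio was -0.63 to -0.82 under other pseudocounts, none included, and -0.89 to -0.58 without 1 library. The miR-378d ratio was 0.55 to 0.58 and 0.46 to 0.67, the miR-378c ratio 0.090 to 0.15, the miR-378b ratio 0.17 to 0.32 and the miR-107 ratio 0.062 to 0.17 without 1 library. Leaving out both controls with under 20 miR-33a reads, chosen after seeing the data as was the setting with no pseudocount, gave -0.60 for miR-33 and 0.52 for miR-378d (adjusted exact permutation p = 0.179 each). Fewer libraries allow fewer splits, so these tests lose reach by construction. Among 26 sets of values a screen for a goat far from its group flagged 0, which does not mean that no single goat bears on a result. Without control replicate 2, which had 4 reads of miR-33a, the log2 fold change of miR-33a moved from 0.81 to 0.30. No paired analysis was made, because the replicates are separate goats and the labels give no pairing. Depth limits miR-33a most, at 4 to 93 reads per library.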
